A study of Homo sapiens with 20 samples.

Results

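DNA transposons were read out as 236 subfamilies among the 1174 repeat subfamilies of a table of 41092 gene and repeat rows. A row was taken as a member when its class was written exactly DNA, which left out 26 rows whose class carried a question mark. The hAT families held 128 members, the TcMar (Tc1/mariner) families 80 and all other families 28. Of the 236, 226 passed the filter on low counts and were tested: 126 hAT, 78 TcMar and 22 others. The 10 that did not pass held between 15 and 105 counts over all libraries, among them Tigger1a_Mars, MER132 and MER136.

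The libraries were made from HCT-116, an established human colorectal cancer line, and formed 5 groups of 4. Asynchronous cells were untreated and unsynchronised. G2 cells had spent 16 h in 2 mM thymidine, a block to DNA replication, and 7 h in release, and were taken before any drug. The remaining 3 groups had the same synchronisation followed by 3 h with a drug: the proteasome inhibitor MG132 at 20 µM, the proteasome inhibitor bortezomib at 100 nM, or 20 µM MG132 together with 50 µg/ml α-amanitin, which blocks RNA polymerase II. A comparison of a drug group with G2 cells therefore also contains 3 h of time. A vehicle group at 3 h was not analysed here. The model is 1 cell line. Nothing in the labels tells whether replicates came from different cultures, so every p-value here is set by the variation among these libraries and that variation could be technical.

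DNA transposons move as DNA: a transposase binds the short inverted repeats at the ends of an element, cuts it out and inserts it elsewhere. In humans all copies are old and no subfamily is known to move. Most subfamilies are short forms without a transposase gene of their own, such as MER5A and MER20 of hAT-Charlie or MADE1, a palindromic derivative of the mariner element Hsmar1. Copies lie mainly in introns and between genes, and total RNA holds unspliced transcripts. A count on a subfamily was not split here between a transcript of its own and a host transcript. Some transposase genes live on as host genes, among them SETMAR, the TIGD genes and the ZBED genes.

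Palindromic copies of MADE1 are known as the source of the miR-548 family of microRNA hairpins. The sequences below are of these microRNAs, not of MADE1 itself or of DNA transposons in general. Of the 5 miR-548 hairpins in the RefSeq table used here (build GRCh38.p14), MIR548M had the longest perfectly paired arms. It lies on chromosome X, 95063141 to 95063226, minus strand, and is 86 bases long. In it 29 bases at the start recur as their exact reverse complement after a stretch of 26 bases. The paired arms are in capitals:
MIR548M: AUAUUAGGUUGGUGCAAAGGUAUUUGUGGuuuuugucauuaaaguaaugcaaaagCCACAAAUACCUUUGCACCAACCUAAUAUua
Mature forms are shown with the seed, bases 2 to 8, in capitals. The seed shared by the most names (11 of 55) is that of the next 3, and the second (7 of 55) that of the last:
hsa-miR-548ar-5p: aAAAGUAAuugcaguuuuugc
hsa-miR-548as-5p: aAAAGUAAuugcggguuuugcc
hsa-miR-548bb-5p: aAAAGUAAcuaugguuuuugcc
hsa-miR-548aq-3p: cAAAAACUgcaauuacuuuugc
The first pair lie on chromosome 13 (114244505 to 114244525 and 92490163 to 92490184, plus strand), and miR-548bb-5p and miR-548aq-3p on chromosome 3 (60617837 to 60617858 and 185767847 to 185767868, minus strand). The count table held 29 MIR548 gene rows with 1467 counts in all, and 2 of them passed the filter, so MADE1 itself was read through its repeat row.

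Counts were concentrated in few subfamilies. The 236 members held 4411196 counts over the 20 libraries, and the 10 most counted held 36.1% of them. hAT subfamilies took 60.6%, TcMar subfamilies 38.3% and the others 1.19%. Counts are not divided by copies or length, so a high count is not a high level per copy. hAT-Charlie with 74 subfamilies held 52.8% and TcMar-Tigger with 64 held 34.9%. Tigger1, an element with a pogo-like transposase, was first with 313814 counts. MER5A (230961), MER20 (191322) and MER5B (159058), all non-autonomous hAT-Charlie elements, came next, and MER2 (122669) and Tigger4a (69288) followed Tigger1 within TcMar. The most counted of the smaller families were MamTip2 of hAT-Tip100 (25370), MER94 of hAT-Blackjack (28348), MER53 of hAT (18127), OldhAT1 of hAT-Ac (27449), MARNA of TcMar-Mariner (31362) and MER104 of TcMar-Tc2 (18863). Among non-hAT, non-TcMar families, Looper of PiggyBac led with 15028 and Ricksha_c, a Mutator-like element, had 5878. Merlin1_HS had 1018, DNA1_Mam of TcMar 1197, MER135 of unplaced DNA elements 2698 and UCON107 of hAT-Tag1 880. The pogo element MER132 and both PIF-Harbinger subfamilies were not tested.

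The share of all counts on DNA transposons varied widely within groups and did not separate them. It was 0.366, 0.958, 0.350 and 0.897% in asynchronous replicates 1 to 4, and 0.440, 0.418, 0.859 and 0.749% in the G2 replicates. MG132 replicates had 0.921, 0.617, 0.614 and 0.445%, bortezomib replicates 0.990, 0.949, 0.696 and 1.40%, and MG132 with α-amanitin 0.938, 0.774, 0.685 and 0.527%. The groups overlapped in all 6 comparisons of them, and bortezomib held both the highest library and the highest mean (1.01% ± 0.290, SD, n = 4, against 0.616% ± 0.221 in G2). Counting error was small beside this spread: the 95% Wilson interval ran from 0.348 to 0.353% in the lowest library and from 1.39 to 1.40% in the highest, for counting error only.

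**Figure D1:**
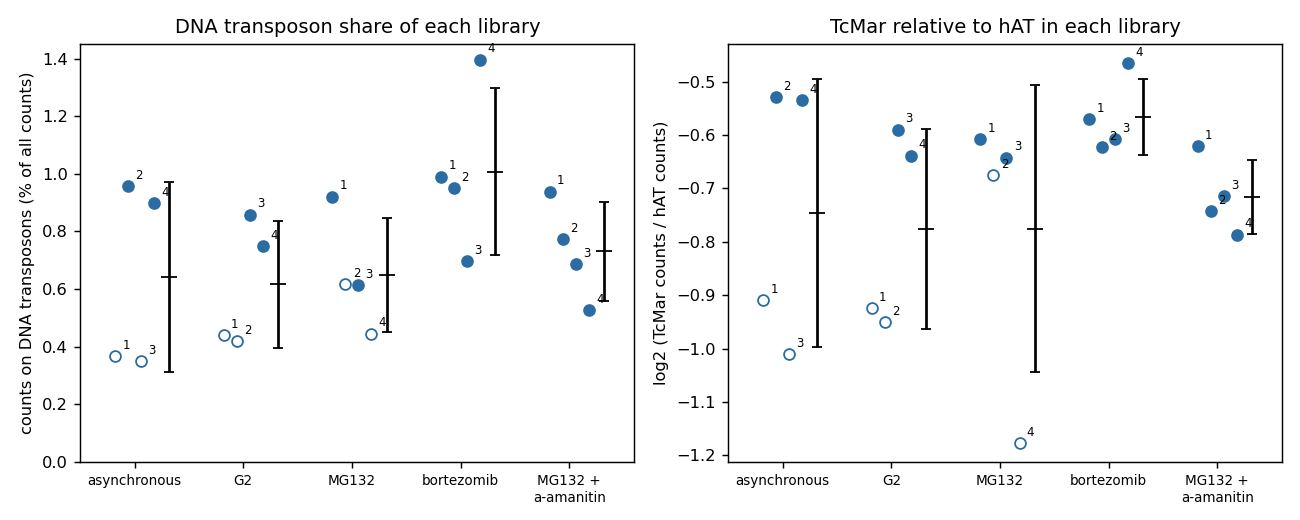
Left, counts on DNA transposons as a percentage of all counts. Right, log2 of summed TcMar over summed hAT counts. Points are libraries with their replicate number, bars are the group mean and SD (n = 4), and open points are the 6 libraries set apart by GC slope or protein-coding share. In both panels the asynchronous and G2 libraries fall apart into open points below and filled points above, and the bortezomib libraries are all filled.

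Library totals ran from 26797395 to 39710457 counts and counts on members from 100066 to 374284. The slope of gene deviations on GC content passed 0.3 log2 units per 10 percentage points, up or down, in asynchronous replicate 3, G2 replicate 2 and MG132 replicates 2 and 4, and protein-coding genes took under 70% of counts in asynchronous replicate 1 and G2 replicate 1. These 6 libraries, set apart after the data were seen, had DNA transposon shares of 0.350 to 0.617%, and the other 14 had 0.527 to 1.40%. None is a bortezomib or an α-amanitin library. In bulk RNA, fewer cells with a transcript and less of it per cell cannot be told apart. Of the epithelial markers, EPCAM (142 to 408 CPM), CDH1, KRT8 and KRT18 were present in every library. CDX2 was at 4.82 to 13.9 CPM, KRT20 at 0.677 to 7.04 CPM, and VIL1 was at or near 0 (0 to 0.223 CPM). CPM here are relative to library sizes after TMM scaling. Summed fibroblast markers were at 3.17 to 4.13 CPM in asynchronous cells and 5.40 to 12.6 CPM in the other groups, nearly all COL1A1, with the medians of COL1A2, DCN and LUM at 0. Summed leukocyte markers stayed at 0.0491 to 0.857 CPM. The part of these markers in the results was not tested.

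The subfamilies moved together from library to library. Of the 226 tested, 219 and 217 were above their own 20-library mean in asynchronous replicates 2 and 4, and 19 and 2 in replicates 1 and 3. G2 replicates had 10, 1, 199 and 120 above it, MG132 replicates 223, 113, 57 and 3, bortezomib replicates 224, 215, 145 and 226, and MG132 with α-amanitin 221, 186, 94 and 4. Repeats of the other classes deviated by similar amounts in the lowest and highest of these libraries. The median deviation was -0.98 log2 for the members and -0.99 for other repeats in asynchronous replicate 3, and 1.10 and 1.12 in bortezomib replicate 4. The SD within groups of a member's log2 CPM had a median of 0.55, against 0.43 for genes, 0.69 for the 850 other repeats, 0.84 for LINE and 0.40 for SINE subfamilies. TcMar subfamilies were more variable (median 0.60) than hAT subfamilies (0.52), as a description over rows that share libraries.

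**Figure D2:**
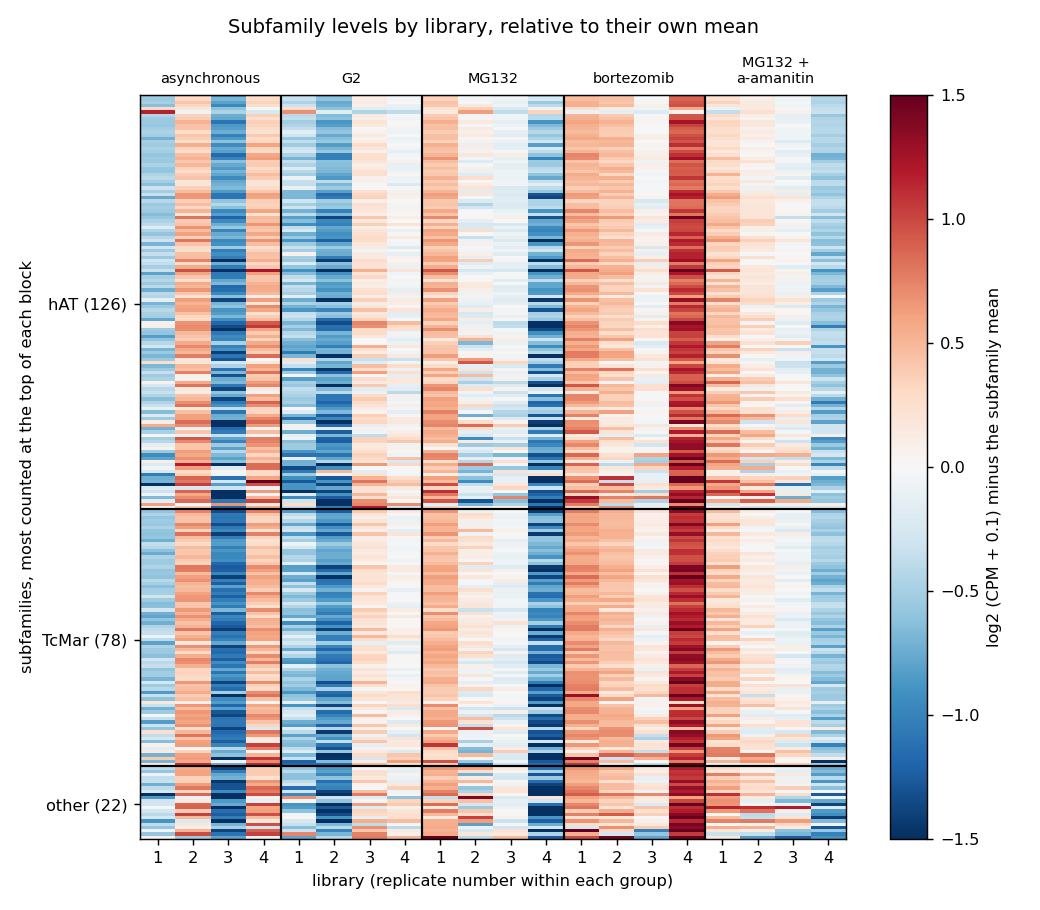
Each row is 1 of the 226 tested subfamilies and each column a library. Colour is log2 (CPM + 0.1) minus the subfamily's mean over the 20 libraries. Whole columns are blue or red in the hAT, TcMar and other blocks alike, from asynchronous replicate 3 (2 of 226 above their mean log2 CPM) to bortezomib replicate 4 (226 of 226). The dark red cell near the top of asynchronous replicate 1 is MER1A.

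TcMar and hAT kept unequal proportions in these libraries. hAT exceeded TcMar in every library, and the log2 of summed TcMar over summed hAT counts ran from -1.18 to -0.47. It was -0.91, -0.53, -1.01 and -0.53 in asynchronous replicates 1 to 4 and -0.92, -0.95, -0.59 and -0.64 in the G2 replicates. MG132 replicates had -0.61, -0.68, -0.64 and -1.18, bortezomib replicates -0.57, -0.62, -0.61 and -0.47, and MG132 with α-amanitin -0.62, -0.74, -0.71 and -0.79. Bortezomib had the highest mean (-0.57 ± 0.07, SD, n = 4) and G2 the lowest (-0.78 ± 0.19). That difference of 0.21 was 0.05 without the 6 libraries set apart, which leaves only replicates 3 and 4 in G2. With all libraries the groups overlapped. No comparison separated its groups on this ratio. The 6 libraries set apart had ratios of -1.18 to -0.68 and the other 14 of -0.79 to -0.47. These ranges overlap, and the part of GC slope or protein-coding share in the ratio was not tested.

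The first comparison, G2 against asynchronous cells, covers the thymidine synchronisation. No member was called at an adjusted p under 0.05 by edgeR (quasi-likelihood test, Benjamini-Hochberg over all 20035 rows), where 1.88% of all rows were called, and DESeq2 called 0. At an unadjusted p under 0.05, 1 member passed, against 12.5% of all rows in either direction. It was MER99, a hAT element named after its values were seen: 1.57, 2.60, 1.42 and 3.04 CPM in asynchronous and 0.588, 0.832, 1.66 and 1.61 CPM in G2 replicates, a log2 fold change of -0.88 (SE 0.387, edgeR adjusted p = 0.337). The low asynchronous replicates and the high G2 replicates overlapped. No member separated the groups, against 7.26% of all rows that did. The median log2 fold change was -0.23 for the members, -0.21 for hAT and -0.23 for TcMar, beside -0.33 for other repeats and -0.06 for all rows, and the members' median became 0.12 with the code letter as a block. This letter is part of each sample code and is not explained by the labels. Within letter O the share of counts on DNA transposons was 0.350% in 1 asynchronous library and 0.418 to 0.859% in 3 G2 libraries. Within letter L it was 0.366% in asynchronous and 0.440% in G2 cells. These asynchronous libraries, replicates 3 (O) and 1 (L), are among those set apart by GC slope or protein-coding share. So are G2 replicates 1 (L) and 2 (O). Asynchronous replicates 2 (M) and 4 (Q), at 0.958 and 0.897%, share their letter with no G2 library. The within-letter values therefore do not cover them.

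MG132 was compared with G2 cells for the response to proteasome inhibition. Here too 0 members were called by edgeR or DESeq2, against 1.86% of all rows. None reached an unadjusted p under 0.05, against 11.3% in either direction, and none separated the groups, against 6.24%. The median log2 fold change was 0.21 for the members and -0.02 for all rows, with hAT at 0.20 and TcMar at 0.21. With mitochondrial mRNA scaling these medians became -0.08 and -0.28, so the members stayed 0.20 above all rows, but with the code letter block they were 0.01 above them. Without MG132 replicate 1 the members' median was -0.03. MER45B of hAT-Tip100 had the smallest p, with 7.83, 5.07, 7.73 and 8.55 CPM in G2 and 9.33, 16.9, 11.0 and 6.18 CPM in MG132 replicates (log2 fold change 0.57, edgeR adjusted p = 0.460), and was named after its values were seen. One MG132 library lay below most G2 libraries.

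Bortezomib, a second proteasome inhibitor of different chemical type, had the highest median log2 fold change of the members among the 6 comparisons when set against G2 cells, and no member was called by edgeR. Of the 226, 225 had a positive log2 fold change, with a median of 0.81. The median was 0.75 for hAT, 0.88 for TcMar and 0.89 for the other families, beside 0.87 for other repeats, 1.03 for LINE, 0.73 for SINE, 0.84 for LTR subfamilies and 0.02 for all rows. edgeR called 0 of 226 members and 1.07% of all rows. DESeq2 called 3 higher: Charlie10a (adjusted p = 0.0359), MER107 (0.0362) and MER6B (0.0366), all named after their values were seen. The share of all rows that DESeq2 called is not given here. At an unadjusted p under 0.05, 140 members were higher, against 7.69% of all rows and 45.7% of all repeat subfamilies. The groups did not overlap for 36 members, all higher, against 7.94% of all rows and 12.7% of all repeat subfamilies.

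Those 36 were 15 hAT, 16 TcMar and 5 other subfamilies. MER107, a hAT-Charlie element, was at 6.28, 5.72, 9.79 and 8.68 CPM in G2 and 16.6, 15, 9.95 and 18.4 CPM in bortezomib replicates. Its lowest bortezomib library lay just above its highest G2 library, and its log2 fold change was 0.98 (SE 0.291, edgeR adjusted p = 0.109). MER6B of TcMar-Tigger was at 14.3, 11.9, 15.5 and 15 CPM in G2 and 27.8, 23.9, 17.4 and 35.2 CPM in bortezomib replicates (0.88, SE 0.264, adjusted p = 0.110). Charlie10a had 4.96, 4.03, 5.71 and 5.77 CPM in G2 and 9.37, 8.59, 7.66 and 15.6 CPM in bortezomib replicates (1.01, SE 0.304, adjusted p = 0.112). In all of these bortezomib replicate 3 was the lowest bortezomib library and replicate 4 the highest.

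The most counted subfamilies had the same layout with overlap. Tigger1 was at 252, 190, 595 and 502 CPM in G2 and at 768, 658, 530 and 1157 CPM in bortezomib replicates. Replicate 3 of bortezomib fell between G2 replicates 3 and 4, and the log2 fold change of 1.02 (SE 0.472, edgeR adjusted p = 0.295) was 0.48 without the 6 libraries set apart. MER5A was at 269, 216, 401 and 352 CPM against 520, 479, 358 and 694 CPM (0.73, SE 0.302, adjusted p = 0.252), and MER20 at 239, 198, 325 and 294 CPM against 416, 411, 297 and 549 CPM (0.67, SE 0.256, adjusted p = 0.221). The TcMar-Tigger subfamilies MER2 (0.78) and Tigger4a (0.83) and the hAT-Charlie subfamilies MER5B (0.75), MER3 (0.73) and Charlie1 (0.85) had adjusted p-values of 0.198 to 0.266. Among the other elements of the fixed set, Cheshire had 1.08, BLACKJACK 1.09, Zaphod 0.56 and the piggyBac element MER85 0.81, with adjusted p-values of 0.250 to 0.450. BLACKJACK alone of these separated the groups, at 5.80 to 19.0 CPM in G2 and 20.2 to 38.6 CPM in bortezomib.

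**Figure D3:**
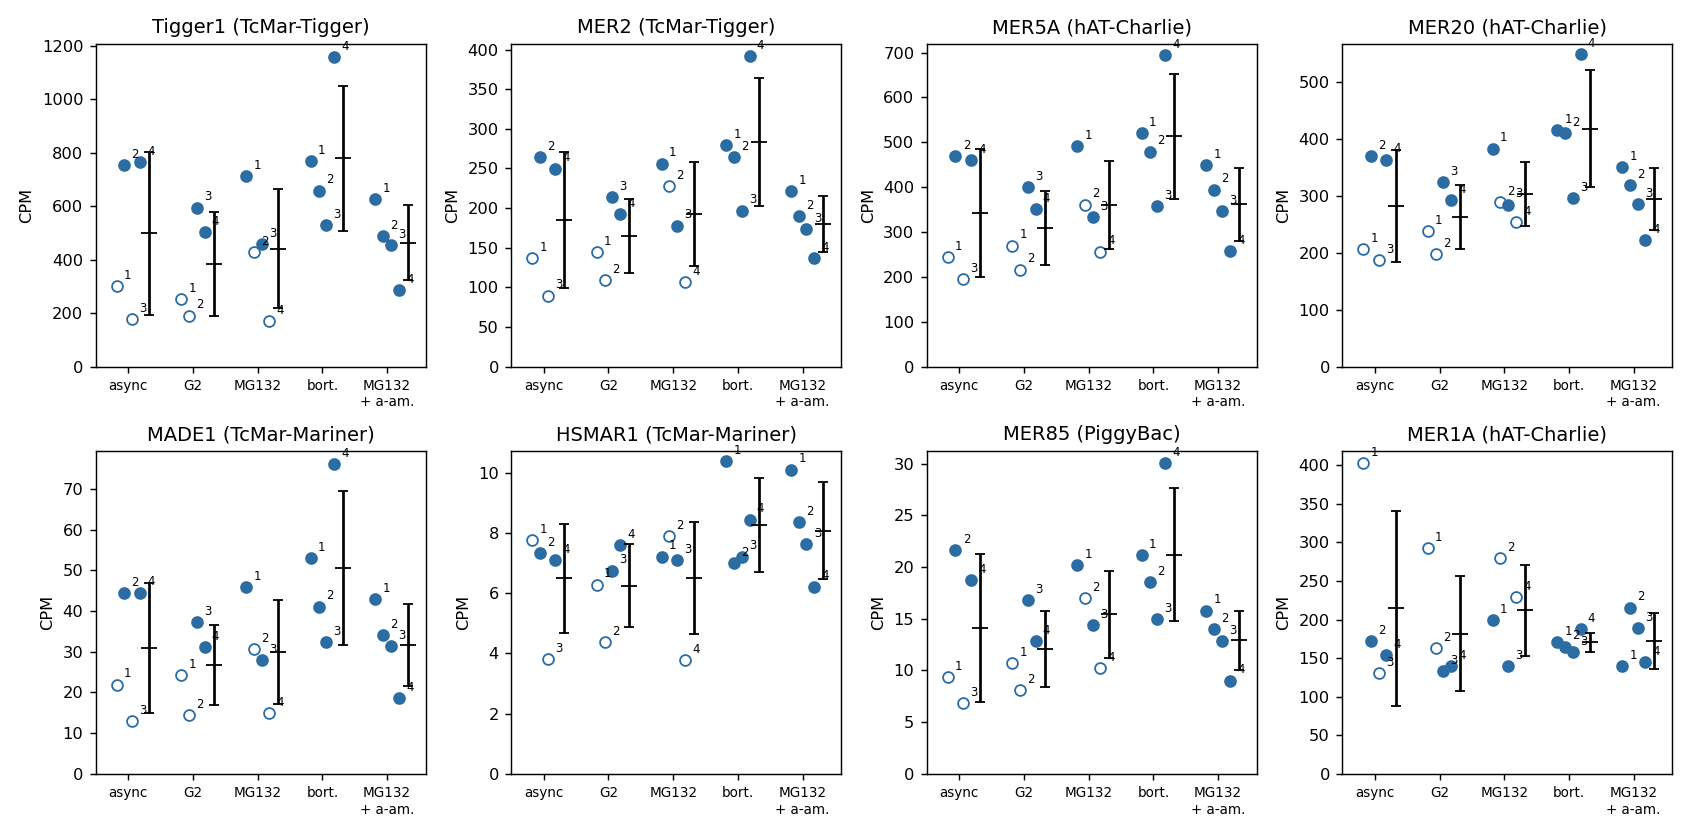
CPM of 8 subfamilies in every library, with replicate numbers, the group mean and SD (n = 4), and open points for the 6 libraries set apart. Bortezomib replicate 4 is the highest library for all of the 8 except HSMAR1 and MER1A, and the bortezomib and G2 points overlap in all 8.

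The count at an unadjusted p under 0.05 depended on single libraries, and ranged from 17 to 176 leaving out each. It was 176 without G2 replicate 3 (77.9% of members against 69.0% of repeat subfamilies and 9.59% of all rows). Without bortezomib replicate 4 it was 17 in place of 140, or 7.52% of members against 7.79% of repeat subfamilies and 4.07% of all rows. Without G2 replicate 1 it was 50 (22.1% against 13.8% of repeat subfamilies and 4.65% of all rows), and without G2 replicate 2 it was 32 (14.2% against 10.7% and 4.01%). Without the 6 libraries set apart it was 34 (14.8% against 8.78% and 6.84%), and the median log2 fold change was 0.46, with 227 of 229 tested members positive. That omission leaves only replicates 3 and 4 in G2 and every bortezomib library. With the code letter as a block the count was 0, against 1.58% of repeat subfamilies and 2.32% of all rows, and the median was 0.44. No other library has the letter of bortezomib replicate 2 (P) or of replicate 4 (W). That block therefore fits these libraries exactly and gives them no weight, so its count cannot be set beside the 140 as a like test. The number of members whose groups did not overlap was 10 in place of 36 with total library size (4.42% of members against 4.37% of repeat subfamilies) and 7 with mitochondrial mRNA scaling (3.10% against 3.90%). Leaving out a library cannot lower this number on fixed values. It was 172 without bortezomib replicate 3 (76.1% against 55.4% of repeat subfamilies) and 133 without G2 replicate 3 (58.8% against 45.4%). It was 40 without the 6 libraries set apart, which is 17.7% of members against 14.1% of all rows and 14.3% of all repeat subfamilies. Within letter O the share of counts on DNA transposons was 0.990% in 1 bortezomib library and 0.418 to 0.859% in 3 G2 libraries.

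All 5 tested TcMar-Mariner members had positive log2 fold changes in bortezomib against G2, with a median of 0.75, and differences among them were not tested. MARNA was at 0.72 (SE 0.328, edgeR adjusted p = 0.285) and MADE2, named after its values were seen, at 0.75 (SE 0.328, adjusted p = 0.270). HSMAR2 had 17.0, 13.7, 31.3 and 26.5 CPM in G2 and 41.9, 35.6, 31.0 and 65.9 CPM in bortezomib replicates (log2 fold change 0.98, SE 0.395, edgeR adjusted p = 0.241). MADE1 had 24.2, 14.5, 37.2 and 31.2 CPM in G2 and 53.0, 41.1, 32.4 and 76.1 CPM in bortezomib (0.92, SE 0.405, adjusted p = 0.272). HSMAR1, the element that gave rise to the SETMAR transposase domain, was at 6.28, 4.37, 6.75 and 7.60 CPM in G2 and 10.4, 6.99, 7.21 and 8.44 CPM in bortezomib replicates (0.40, SE 0.260, adjusted p = 0.444). Its asynchronous replicates had 7.76, 7.34, 3.81 and 7.08 CPM, its MG132 replicates 7.21, 7.91, 7.11 and 3.78 CPM and its MG132 plus α-amanitin replicates 10.1, 8.36, 7.63 and 6.22 CPM. From the lowest, the group means were 6.25 CPM in G2, 6.5 CPM in asynchronous and in MG132, 8.08 CPM with α-amanitin and 8.26 CPM in bortezomib, and neighbours in this order overlapped. The repeats most like HSMAR1 by Pearson's r over 20 libraries, which share depth and GC slope, were the LTR elements LTR1E (0.93), LOR1-int (0.92) and LTR86C (0.91), as a description.

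MER1A and MER1B of hAT-Charlie, named after their values were seen, were the 2 of the 226 members that were highest in the letter L library in each of the 4 groups that have one, and 195 were highest in it in none. MER1A was at 403, 172, 130 and 153 CPM in asynchronous replicates 1 to 4 and at 293, 162, 133 and 139 CPM in the G2 replicates, where replicate 1 is the letter L library. In MG132 it was at 199, 279, 140 and 229 CPM and with α-amanitin at 140, 215, 189 and 144 CPM, where letter L is replicate 2. Bortezomib, without a letter L library, had 171, 165, 158 and 188 CPM. MER1B was at 254, 234, 136 and 208 CPM in asynchronous, 249, 135, 187 and 189 CPM in G2, 240, 266, 179 and 198 CPM in MG132 and 198, 228, 204 and 162 CPM in MG132 plus α-amanitin replicates. Its letter L library lay closer to the next one than that of MER1A did in asynchronous and G2 cells. Bortezomib replicates of MER1B had 251, 225, 200 and 305 CPM. MER1A was the single tested member with a negative log2 fold change in bortezomib against G2 (-0.09, SE 0.323, edgeR adjusted p = 0.894).

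MG132 with α-amanitin was compared with G2 cells and, at matched time, with MG132 alone, to see what blocking RNA polymerase II adds. No member was called against G2 by edgeR or DESeq2, where 3.11% of all rows were called. At an unadjusted p under 0.05, 3 members passed, all higher, against 14.2% of all rows in either direction, and none separated the groups, against 14.4%. The median log2 fold change was 0.26 for the members, 0.47 for other repeats and 0.02 for all rows. With mitochondrial mRNA scaling it became -0.17, where all rows were at -0.39, and without the 6 libraries set apart it was -0.07. Against MG132 alone 0 members were called by either tool, against 2.08% of all rows, 2 passed an unadjusted p under 0.05 (1 higher and 1 lower), against 12.2% in either direction, and 0 separated the groups, against 8.48%. The median was 0.04 for the members, 0.05 for hAT and 0.03 for TcMar, beside 0.41 for LTR, 0.17 for LINE and 0.17 for SINE subfamilies. It was 0.22 with total library size, where all rows were at 0.21, -0.11 with mitochondrial mRNA scaling and -0.19 without the 6 libraries. Leaving out MG132 replicate 4 gave -0.13 and leaving out α-amanitin replicate 1 gave -0.11.

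Ricksha_b, a short Mutator-like element chosen after its values were seen, had the smallest p among the members in both of these comparisons, which share the α-amanitin libraries. It was at 2.80, 2.69, 2.87 and 1.02 CPM with α-amanitin, 1.34, 0.791, 1.12 and 0.135 CPM with MG132 alone and 0.625, 0.442, 1.04 and 1.27 CPM in G2. Of the α-amanitin libraries 3 lay above every library of both other groups, and replicate 4 lay within them. The log2 fold change was 1.46 (SE 0.572, edgeR adjusted p = 0.266) against MG132 and 1.46 (SE 0.568, adjusted p = 0.207) against G2. All 5 MULE-MuDR subfamilies, Ricksha_b among them, had a positive log2 fold change in both. Their medians were 0.48 against MG132 and 0.57 against G2, where 136 and 214 of all 226 members were positive. For Ricksha_b every bortezomib library, without α-amanitin, also lay above every MG132 library.

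MG132 and bortezomib were compared with each other at the same time and synchronisation. No member was called by edgeR or DESeq2, against 0.0349% of all rows. At an unadjusted p under 0.05, 17 members were lower with MG132, against 4.44% of all rows in either direction. The groups did not overlap for Ricksha_b and the hAT element UCON80, both lower with MG132, against 3.13% of all rows. The median log2 fold change was -0.60 for the members, -0.57 for hAT, -0.64 for TcMar, -0.71 for other repeats and -0.03 for all rows, and -0.34 without the 6 libraries set apart, of which 2 are MG132 libraries. Tigger1a_Art, named after its values were seen, had the smallest p, at 8.74, 5.57, 6.32 and 2.70 CPM with MG132 and 16.1, 7.98, 9.17 and 22.1 CPM with bortezomib (-1.25, SE 0.456, edgeR adjusted p = 0.886). Its highest MG132 library lay within the bortezomib range.

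**Figure D4:**
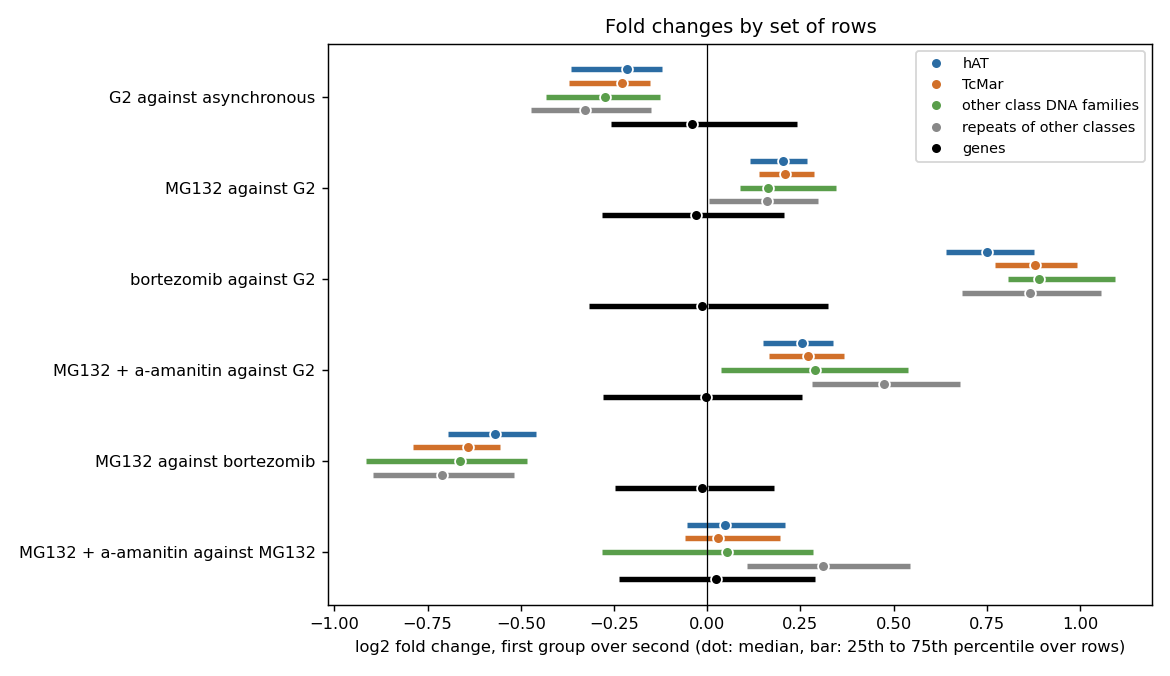
Median (dot) and 25th to 75th percentile (bar) of log2 fold changes over rows, for hAT, TcMar and other DNA families, repeats of other classes and genes, in the 6 comparisons. The DNA transposon sets lie near each other in every comparison, farthest from 0 in bortezomib against G2 (0.75 for hAT, 0.88 for TcMar), and below repeats of other classes where α-amanitin was added.

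Host genes derived from transposases were followed with a list of 35 genes, of which 32 were tested. No gene of the list was called in G2 against asynchronous, bortezomib against G2, MG132 against bortezomib or MG132 with α-amanitin against MG132. In MG132 against G2, 2 fell and 0 rose, and in MG132 with α-amanitin against G2, 3 fell and 0 rose, where 1.86% and 3.11% of all rows were called in either direction. The list's median log2 fold change was -0.14 in the first and -0.28 in the second, against -0.02 and 0.02 for all rows. In bortezomib against G2 the list's median was -0.19, with 22 of 32 negative, against 0.02 for all rows. The genes called were TIGD1 and TIGD5 in MG132 and in MG132 with α-amanitin, each against G2, and ZBED2 in the latter alone.

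TIGD1 (ENSG00000221944.8, hg38 chromosome 2, 232547970 to 232550592), derived from a Tigger transposase, was at 8.45, 9.25, 8.04 and 8.42 CPM in G2, 5.95, 5.02, 4.97 and 3.48 CPM in MG132 and 4.06, 4.38, 5.41 and 3.68 CPM in MG132 plus α-amanitin replicates. Both drug groups lay below every G2 library. It fell by 0.82 on the log2 scale in MG132 (SE 0.183, edgeR adjusted p = 0.0215) and by 0.96 with α-amanitin (SE 0.183, adjusted p = 0.00483). The bortezomib replicates had 6.36, 4.67, 6.10 and 5.55 CPM, also below G2, with an adjusted p of 0.119. TIGD5 (ENSG00000179886.6, chromosome 8), another Tigger derivative, was at 11.9, 18.2, 11.0 and 12.3 CPM in G2, 4.16, 5.85, 5.72 and 7.60 CPM in MG132 and 3.93, 4.23, 3.81 and 5.50 CPM with α-amanitin. No drug library reached the lowest G2 library. The decreases were 1.19 (SE 0.284, adjusted p = 0.0320) and 1.61 (SE 0.287, adjusted p = 0.00331) on the log2 scale.

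The call of TIGD1 in MG132 was lost in 9 of 20 alternatives and that of TIGD5 in 12 of 20, with adjusted p-values of 0.00105 to 0.344 and 0.010 to 0.196. Leaving out G2 replicate 2, G2 replicate 4 or MG132 replicate 3 ended the call of TIGD1 (adjusted p = 0.0781, 0.0536 and 0.0618). Leaving out any of G2 replicates 1, 2 and 4 or MG132 replicates 1, 2 and 3 ended that of TIGD5 (0.0548, 0.133, 0.0614, 0.119, 0.0740 and 0.116). With α-amanitin, TIGD1 was called in all 20 alternatives and TIGD5 in 19, the exception being the code letter block (adjusted p = 0.0565).

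ZBED2 (ENSG00000177494.6, chromosome 3, 111592900 to 111595443), a hAT-derived zinc finger gene, was at 44.8, 54.3, 31.9 and 49.9 CPM in G2 and 12.2, 21.2, 18.7 and 18.9 CPM in MG132 plus α-amanitin replicates. The groups did not overlap, and it fell by 1.35 on the log2 scale (SE 0.310, edgeR adjusted p = 0.0177). The call was lost without G2 replicate 2 (adjusted p = 0.0609), without α-amanitin replicate 1 (0.0875), without the 6 libraries set apart (0.0678) and with the code letter block (0.0954). With MG132 alone it was at 14.7, 20.0, 22.6 and 27.4 CPM and did not pass (adjusted p = 0.0790). Asynchronous replicates of ZBED2 had 14.7, 19.7, 37.1 and 29.1 CPM, a range that overlaps that of the drug groups named here. Its log2 fold change in G2 against asynchronous was 0.85 (edgeR adjusted p = 0.197). SETMAR (ENSG00000170364.12, chromosome 3, 4303304 to 4317567), the fusion of a histone methyltransferase with an Hsmar1 transposase, had group means of 9.90 CPM in asynchronous, 8.03 in G2, 8.12 in MG132, 7.01 in bortezomib and 6.67 with α-amanitin, and its groups overlapped in MG132 against G2 (log2 fold change 0.01, adjusted p = 0.995). THAP9, derived from a P element transposase, averaged 4.22 to 6.03 CPM over the groups and the piggyBac-derived PGBD5 0.255 to 0.397 CPM. ZBED1 and GTF2IRD2, both hAT-derived, were not called either, and GTF2IRD2 has a near-identical copy, so its counts are uncertain.

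**Figure D5:**
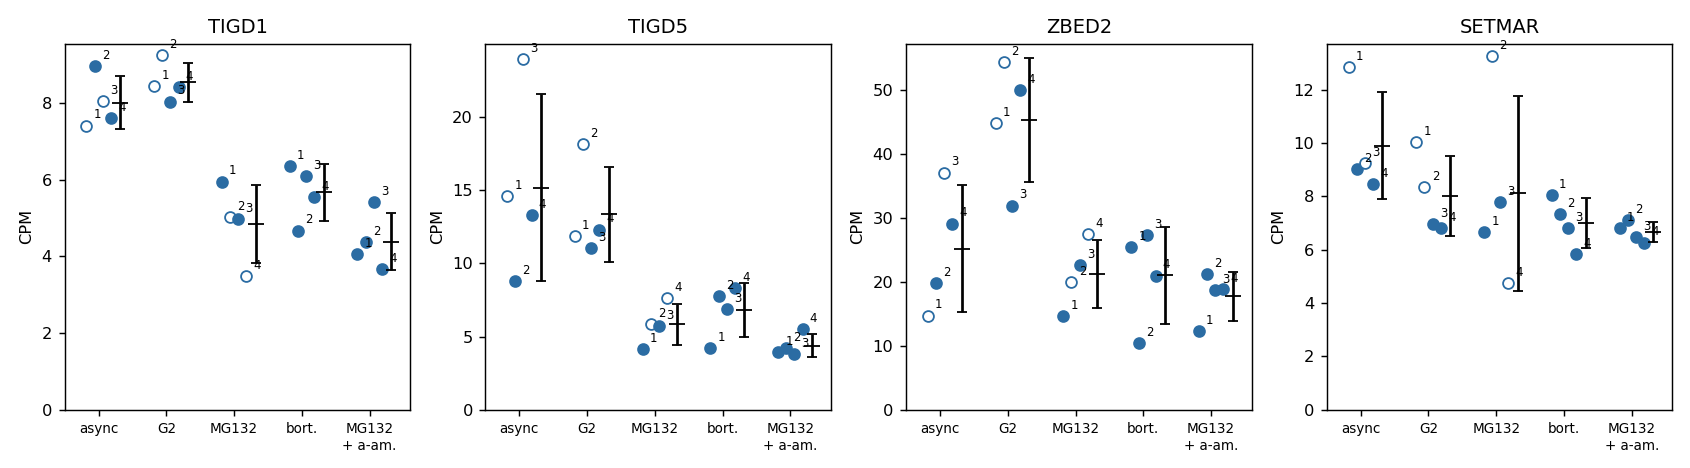
CPM of 4 host genes derived from transposases in every library, with replicate numbers, the group mean and SD (n = 4), and open points for the 6 libraries set apart. TIGD1 and TIGD5 are lower in all 12 drug-treated libraries than in any of the 4 G2 libraries, ZBED2 likewise, and SETMAR overlaps between G2 and MG132.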

How the data were processed

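Per the labels' protocols, stranded total RNA libraries without ribosomal RNA were sequenced from 20 samples. The authors deposited raw counts, 1 column per sample, for 39918 genes and 1174 repeat subfamilies, and 0 columns were left out. FastQC, STAR, cutadapt 1.18 and the build hg38 appear in the submitters' processing notes, with no roles. How reads were counted (tool, strand, multiple alignments) is not given in the sources used here, so counts of similar subfamilies, and of repeats inside genes, are uncertain.

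One edgeR 4.0.16 model under R 4.3.3 covered genes and repeats (filterByExpr, TMM scaling, robust glmQLFit and glmQLFTest), 1 mean per group over all 20 samples, leaving 15 residual degrees of freedom. Biological variation (common coefficient) came to 33.3%. p-values were adjusted (Benjamini-Hochberg) over 18959 genes and 1076 repeats together. CPM use TMM-scaled library sizes, and log2 CPM a prior count of 2. The script was tested on simulated data with rows drawn independently, so that test does not cover subfamilies that move together.

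Groups came from the labels. Alternatives were DESeq2 1.42.0, scaling by RLE, by 13 mitochondrial mRNAs or by total library size, a strict filter (CPM of 1 or more in 4 samples) or none, groups compared alone, adjustment over repeats alone, blocks for replicate number and code letter, and omission of libraries. Omitting the 6 libraries set apart, and the alternatives for counts at an unadjusted p under 0.05 and for groups that do not overlap, were chosen after seeing the data. Of tested genes, GC content was known for 98.6%. No replicate was a duplicate (chi-square between pairs at least 7.26 times its degrees of freedom). Same-numbered samples correlated over 0.1 in 12 of 40 pairs, so the numbers were not taken as pairs.

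The members and gene lists were chosen with earlier results of these data known. Named were called members (up to 4 each way per comparison), the 3 most counted hAT and TcMar subfamilies, the most counted of each other family and a fixed set. miR-548 sequences came from RefSeq. In host genes, ZBED8, ZBED9 and PGBD3 were not tested.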

Additional observations from a re-analysis of the deposited data

Results flagged for a closer look

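Of 150 groups of 4 libraries checked with Dixon's test, 4 held a library far from the other 3. Chance alone gives about 1 group in 20, which is a higher rate than that found. The log2 ratio of TcMar to hAT counts of MG132 replicate 4 was -1.18, against -0.68 to -0.61 in the other MG132 replicates. That library also had the steepest GC slope (0.73 log2 units per 10 percentage points), and its part in the ratio was not tested. HSMAR1 was at 3.81 CPM in asynchronous replicate 3, against 7.08 to 7.76 CPM. Ricksha_b was at 1.02 CPM in replicate 4 of MG132 with α-amanitin, against 2.69 to 2.87 CPM. MER1A was at 403 CPM in asynchronous replicate 1, against 130 to 172 CPM.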

How the results depend on the processing

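No member was called in any comparison under any alternative, with 2 exceptions, both in bortezomib against G2. DESeq2 called 3 of 226, and the share of all rows it called is not given here. Omitting the 6 libraries set apart (after seeing the data) gave 1 of 229, Charlie10b (edgeR adjusted p = 0.0250), where 486 of all rows were called. The replicate block, which pairs samples only by number, called 0 and left 83 members at an unadjusted p under 0.05, against 140. Those 83 are 36.7% of members, against 23.5% of repeat subfamilies and 5.54% of all rows. Leaving out each library gave 0 calls in every comparison.

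That count of 140 was 58 with total library size (25.7% of members against 16.3% of repeat subfamilies and 4.50% of all rows). With mitochondrial mRNA scaling it was 17 (7.52% against 6.51% and 2.20%), and with the code letter block 0. It was 59 without the 2 low protein-coding libraries (26.1% against 14.7% and 4.27%) and 34 without the 6 libraries (14.8% against 8.78% and 6.84%). Leaving out each library gave 17 to 176. The code letter block gave bortezomib replicates 2 and 4 no weight. The 36 members without overlap became 10 with total library size, 7 with mitochondrial mRNA scaling, and 36 to 172 leaving out each library, which cannot lower it.

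The median log2 fold change ranged, leaving out each library, from -0.46 to -0.02 (G2 against asynchronous), -0.03 to 0.40 (MG132 against G2), 0.60 to 1.00 (bortezomib against G2), 0.10 to 0.44 (MG132 with α-amanitin against G2), -0.84 to -0.38 (MG132 against bortezomib) and -0.13 to 0.28 (MG132 with α-amanitin against MG132). It became -0.17 with mitochondrial mRNA scaling in MG132 with α-amanitin against G2. The difference in log2 TcMar to hAT ratio ranged from -0.12 to 0.04, -0.06 to 0.13, 0.15 to 0.27, 0.0017 to 0.12, -0.26 to -0.08 and -0.07 to 0.12 in the same order. Without the 6 libraries it was 0.048 in bortezomib against G2 and -0.10 in MG132 with α-amanitin against G2. The cause of these changes was not tested. Depth does not limit the abundant members, and subfamilies near 1 CPM rest on few counts.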
